A study of Mus musculus with 6 samples.

Results

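The osteocalcin genes Bglap, Bglap2 and Bglap3, Ifitm5, Sparc, Postn and Cdh11 were examined in rib cage RNA from control and Foxc1;Foxc2 mutant mouse embryos. These 7 genes were matched by symbol to the count table and are 7 of its 55487 gene IDs. At 16.5 dpc, RNA-Seq covered 6 embryos: E420, E434 and E435 were the 3 controls, and E423, E433 and E440 the 3 mutants. The controls carry the label wild type, and the study's methods describe compared animals as littermates on a mixed C57B6 and Black Swiss background. The mutants carry the label Col2-cre;Foxc1-/-;Foxc2-/-, a conditional deletion of floxed alleles by a Cre driven from Col2 that the study found active in growth plate chondrocytes, the perichondrium and the primary ossification center. RNA came from the whole cleaned rib cage, so cells without Cre activity contributed to every library, and a smaller number of cells of a type cannot be told apart from less RNA per cell.

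Osteoblasts lay down a collagen matrix that they later mineralise, and the genes they use change as they mature. Cdh11, Postn and Sparc are already used by mesenchymal and early osteoblastic cells, whereas Ifitm5 and osteocalcin mark osteoblasts that are mineralising their matrix. Osteocalcin is a small secreted protein that binds calcium after a vitamin K-dependent carboxylation, and the mouse has a cluster of Bglap, Bglap2 and Bglap3 where most mammals have a single gene.

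The osteocalcin genes lie side by side on the minus strand of chromosome 3 in GRCm38, with Bglap at chr3:88383501-88384464, Bglap2 at chr3:88377736-88378699 and Bglap3 at chr3:88368616-88372743. Each coding sequence has 288 bases in 4 exons, within chr3:88383635-88384415, chr3:88377870-88378650 and chr3:88368756-88369536. They are shown because their likeness limits how well short reads can be assigned to a copy, and capitals mark the bases that differ from Bglap.
Bglap: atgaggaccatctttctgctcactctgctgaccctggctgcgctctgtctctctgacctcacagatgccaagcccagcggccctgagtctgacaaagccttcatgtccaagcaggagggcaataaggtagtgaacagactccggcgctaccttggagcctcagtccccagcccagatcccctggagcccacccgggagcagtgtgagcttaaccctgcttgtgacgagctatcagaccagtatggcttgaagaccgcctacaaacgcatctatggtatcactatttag
Bglap2: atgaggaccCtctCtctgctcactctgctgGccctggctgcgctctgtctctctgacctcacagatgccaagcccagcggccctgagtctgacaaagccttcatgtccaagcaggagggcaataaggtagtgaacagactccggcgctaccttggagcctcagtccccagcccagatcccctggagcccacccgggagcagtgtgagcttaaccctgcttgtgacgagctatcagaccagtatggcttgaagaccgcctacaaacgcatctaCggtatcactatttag
Bglap3: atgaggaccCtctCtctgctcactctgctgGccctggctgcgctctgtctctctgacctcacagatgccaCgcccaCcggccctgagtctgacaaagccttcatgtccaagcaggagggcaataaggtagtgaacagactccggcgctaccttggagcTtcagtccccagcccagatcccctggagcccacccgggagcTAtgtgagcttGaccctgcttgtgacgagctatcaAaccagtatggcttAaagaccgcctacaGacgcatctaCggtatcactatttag
Bglap and Bglap2 differed at 4 bases, A10C, T14C, A31G and T273C, counted from 1 at the first base of the start codon with the Bglap base first. Their identity was 98.61%, and 241 bases in a row were the same. Bglap3 differed from Bglap at 13 bases, an identity of 95.49%, and from Bglap2 at 9 bases, an identity of 96.88%.

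The reads were 42 bases from each end of a fragment. Of all 42-base stretches of the annotated transcripts, 58.58% for Bglap and 92.09% for Bglap2 occurred also in another gene, which left 34 of 430 stretches particular to Bglap2. For Bglap3 the shared portion was 14.53%, because 1852 of its 2629 exon bases, or 70.45%, lie before its start codon in sequence that the other copies mostly lack. Bglap3 is therefore the best resolved of the osteocalcin genes, and a count for Bglap or Bglap2 alone is uncertain. The authors counted in 2 ways. The featureCounts table counts the primary alignment of every read, including reads with several alignments, and RSEM divides such fragments among genes and gives estimated counts and TPM, a level scaled for transcript length and library size.

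The library totals ran from 37853988 to 47794799 featureCounts counts. Foxc1 was lower in the mutants, at 909, 1674 and 1175 counts in E420, E434 and E435 and 148, 414 and 162 counts in E423, E433 and E440, and Foxc2 was at 78, 219 and 156 counts against 27, 49 and 34 counts. Libraries E434 and E433 stood apart. The 12 chondrocyte genes (Col2a1, Acan and others, all tested) summed to 25663 CPM in E434 and 9268 CPM in E433. CPM are counts scaled to a library size adjusted by the TMM method. In controls E420 and E435 these genes summed to 1954 and 1852 CPM, and in mutants E423 and E440 to 655.6 and 630.5 CPM. The 7 hepatocyte genes summed to 600.3 CPM in E433 and to at most 46.8 CPM elsewhere. The 8 keratinocyte genes summed to 11.9 CPM in E434, to between 5339 and 6188 CPM in the other controls, to 3209 CPM in E433 and to between 27776 and 27914 CPM in the other mutants. Libraries E420 and E435 were close to each other, as were E423 and E440, with a median chi-square between them 1.87 and 1.43 times that of counting noise over genes, against 7.29 to 12.7 times for the other pairs within a group. A p-value below from edgeR or DESeq2 sets a group difference against the spread between these libraries.

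In the controls Sparc was the most abundant of the 7 genes, at 2799 ± 610 TPM (SD, n = 3), followed by Postn at 1371 ± 158 TPM. Cdh11 at 63.3 ± 6.37 TPM and Ifitm5 at 54.4 ± 3.43 TPM were neighbours in this order whose ranges touched. Bglap at 7.38 ± 1.07 TPM, Bglap3 at 4.76 ± 3.94 TPM and Bglap2 at 4.0 ± 1.95 TPM were the lowest. The range of Bglap3, which was far lower in E434 at 0.21 TPM, overlapped those of both Bglap and Bglap2. In the mutants the means of the osteocalcin copies stood in another order, with Bglap3 at 10.6 ± 5.39 TPM, Bglap2 at 1.82 ± 1.36 TPM and Bglap at 0.97 ± 0.442 TPM. The ranges of Bglap2 and Bglap overlapped there.

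**Figure D1:**
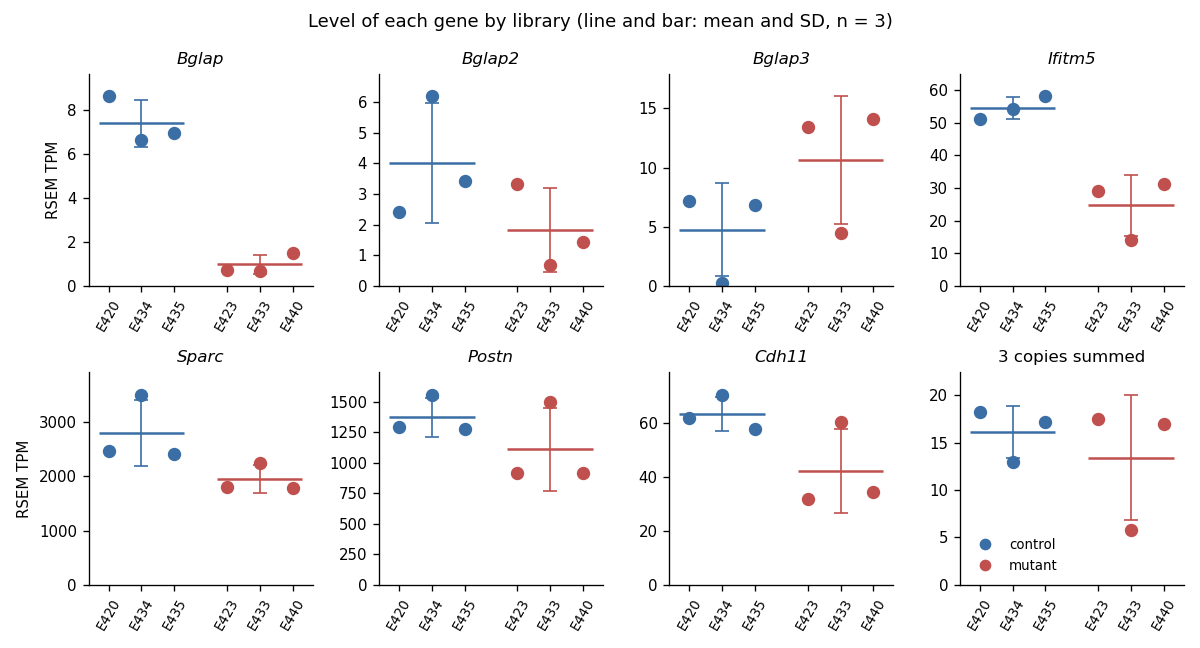
Level of each gene in TPM (vertical axis, from 0) in each library, controls in blue and mutants in red, with the mean and SD of each group (n = 3). Bglap and Ifitm5 did not overlap between the groups, Bglap3 was at 0.21 TPM in control E434, and E433 had the lowest Ifitm5 level at 13.9 TPM.

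Bglap, the gene usually measured as osteocalcin, was lower in each mutant. Among the controls E420, E434 and E435 it had 8.6, 6.61 and 6.93 TPM, against 0.74, 0.69 and 1.48 TPM in mutants E423, E433 and E440, so the mutant mean was 13.1% of the control mean. These values rest on few estimated RSEM counts, 30.3, 27.3 and 31.7 in the controls and 3.21, 2.68 and 6.63 in the mutants. In featureCounts it had 53, 59 and 60 counts in the controls and 22, 7 and 30 counts in the mutants, 34.3% of the control mean. The groups did not overlap in either measure. The lowest mutant value came from E433 in featureCounts, while in RSEM E433 and E423 were nearly level. The log2 fold change was -1.52 (SE 0.454) from featureCounts and -2.73 (SE 0.360) from RSEM. Neither was a call, which required an adjusted p under 0.1 together with a log2 change of 1 or more either way, in edgeR's quasi-likelihood test, with adjusted p of 0.389 and 0.154.

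The DESeq2 Wald test called Bglap lower from both tables, with an adjusted p of 0.0630 from featureCounts and 0.000837 from RSEM. The tools differed over all genes as well. Of 26596 genes in featureCounts edgeR called 0.0301% lower and 0.0338% higher, and of 21928 genes in RSEM 0.0228% either way, whereas DESeq2 called 0.459% and 0.424% lower. Without mutant E433 edgeR also called Bglap lower, at -1.12 (adjusted p 0.0438) from featureCounts and -2.53 (adjusted p 0.0250) from RSEM, while without any other single library the adjusted p from edgeR was 0.172 or more. Direction was the same in both tables, and size was not.

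Bglap2 is the copy closest to Bglap and encodes the same mature osteocalcin. It had 2.42, 6.18 and 3.41 TPM in E420, E434 and E435 and 3.33, 0.68 and 1.44 TPM in E423, E433 and E440, and the groups overlapped. The featureCounts values overlapped too, with 55, 51 and 64 counts in the controls and 52, 11 and 39 counts in the mutants. The log2 fold change was -0.71 (SE 0.508, edgeR adjusted p 0.654) from featureCounts and -1.03 (SE 0.635, adjusted p 0.563) from RSEM. It was -0.29 without E433 and -1.21 without E423 in featureCounts, and in RSEM -0.63 without E433, -0.59 without E434 and -1.78 without E423. Summing Bglap with Bglap2 avoids the division of reads between the nearest copies and was tried after the values were seen. The sum was 11, 12.8 and 10.3 TPM in the controls and 4.07, 1.37 and 2.92 TPM in the mutants, with no overlap. Its log2 fold change was -1.06 (SE 0.476, edgeR adjusted p 0.494, DESeq2 0.274) from featureCounts and -1.83 (SE 0.401, edgeR adjusted p 0.292, DESeq2 0.0110) from RSEM. Without E433 the featureCounts value was -0.65.

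Bglap3, a copy with a weaker link to bone and long 5′ exons, did not share this pattern. It had 7.21, 0.21 and 6.86 TPM in E420, E434 and E435 and 13.4, 4.43 and 14.1 TPM in E423, E433 and E440. Counts were 221, 13 and 269 in the controls and 304, 133 and 362 in the mutants. E434 was far below the other controls, and E433 was the lowest mutant. The log2 fold change was 0.67 (SE 0.907, edgeR adjusted p 0.819) from featureCounts and 0.85 (SE 1.06, adjusted p 0.780) from RSEM. Without E434 alone it was 0.12 and 0.28, and in featureCounts it was 1.06 without E420, 1.05 without E435 and 0.45 without E440. With E434 and E433 both left out, an alternative chosen after seeing the data, it was 0.44 (SE 0.120, edgeR adjusted p 0.00664) from featureCounts, below the limit on the fold change. The order of the libraries in Bglap3, lowest in E434 and next in E433, was also that of the summed keratinocyte genes given above, whose part in the Bglap3 values was not tested. Tmem79, which lies within 50 kb of the cluster, had 605, 37 and 585 counts in the controls and 1032, 255 and 901 in the mutants, while the neighbours Smg5 and Cct3 showed no such dip, with log2 fold changes of 0.06 and 0.03.

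**Figure D2:**
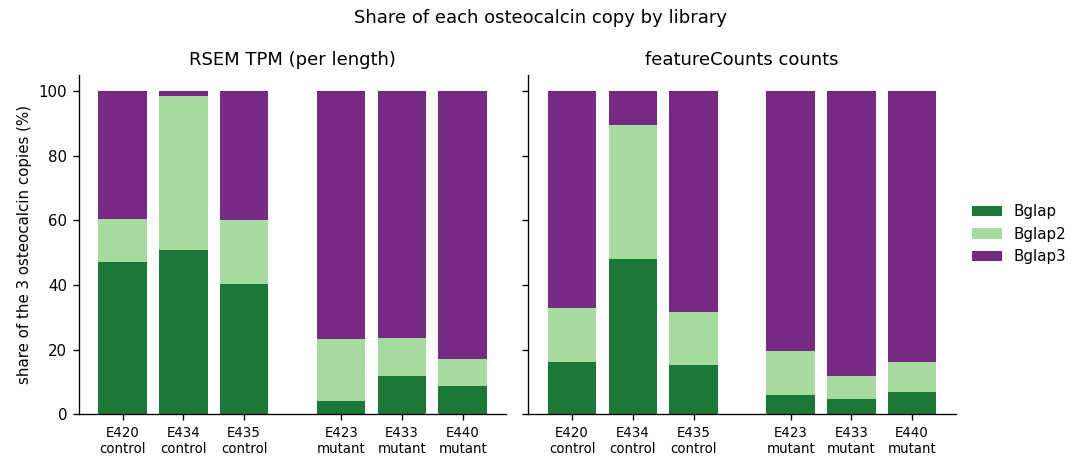
Percentage of the summed osteocalcin level taken by Bglap, Bglap2 and Bglap3 in each library (stacked bars to 100%), from RSEM TPM on the left and featureCounts counts on the right. Bglap3 held 76.4 to 82.8% of the TPM in the mutants and 1.62 to 39.9% in the controls.

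The groups were apart in the make-up of the osteocalcin pool and overlapped in its size. Bglap held 47.2, 50.8 and 40.3% of the summed TPM in E420, E434 and E435 and 4.24, 11.9 and 8.71% in E423, E433 and E440. Bglap3 held 39.6, 1.62 and 39.9% in the controls and 76.7, 76.4 and 82.8% in the mutants. In featureCounts counts its shares were closer outside E434, at 67.2, 10.6 and 68.4% in the controls and 80.4, 88.1 and 84.0% in the mutants. The groups did not overlap for either copy, nor did they in featureCounts counts, where Bglap held 15.3 to 48.0% in the controls and 4.64 to 6.96% in the mutants. Bglap2 overlapped in TPM, with 13.3 to 47.5% in the controls and 8.47 to 19.1% in the mutants. In featureCounts counts Bglap2 did not overlap, with 16.3 to 41.5% in the controls and 7.28 to 13.8% in the mutants. These shares are not independent of each other, and E434, with few Bglap3 reads, set the upper end for Bglap2.

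The 3 copies summed did not separate the groups. The sum was 18.2, 13 and 17.2 TPM in the controls and 17.5, 5.8 and 17 TPM in the mutants, with E433 the lowest. In featureCounts it was 329, 123 and 393 counts against 378, 151 and 431 counts, with E434 the lowest. The direction turned with the unit: the mutant mean was 83.2% of the control mean in TPM, and 114% in featureCounts CPM. From featureCounts the log2 fold change of the sum was 0.19 (SE 0.524, edgeR adjusted p 0.918), and from RSEM it was 0.30 (SE 0.539, adjusted p 0.847). This fold change also turned when E434 was left out, to -0.17 in featureCounts and -0.053 in RSEM, and in featureCounts also without E440, to -0.02. The log2 ratio of Bglap to Bglap2 within a library was 1.83, 0.10 and 1.02 in the controls and -2.17, 0.02 and 0.04 in the mutants. The means differed by -1.69, with p = 0.1 in an exact permutation test (2-sided, adjusted p 0.5 over 5 ratios), the smallest p that 3 against 3 libraries allow. The difference was -0.78 from featureCounts counts and -0.95 without E423.

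The ratio of featureCounts counts to RSEM fragments shows where the tables part. Each end was counted in featureCounts, so the median over 15899 genes was 2.05, and Sparc stood between 2.04 and 2.05 in every library. For Bglap the ratio ran from 1.75 to 2.16 in the controls and from 2.61 to 6.85 in the mutants, so RSEM assigned relatively fewer fragments to Bglap in the mutants. For Bglap2 it ran from 1.72 to 5.30 with no separation of the groups. For the 3 copies summed it ran only from 1.98 to 2.21, so the tables hold nearly the same total of osteocalcin reads and differ in their division.

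**Figure D3:**
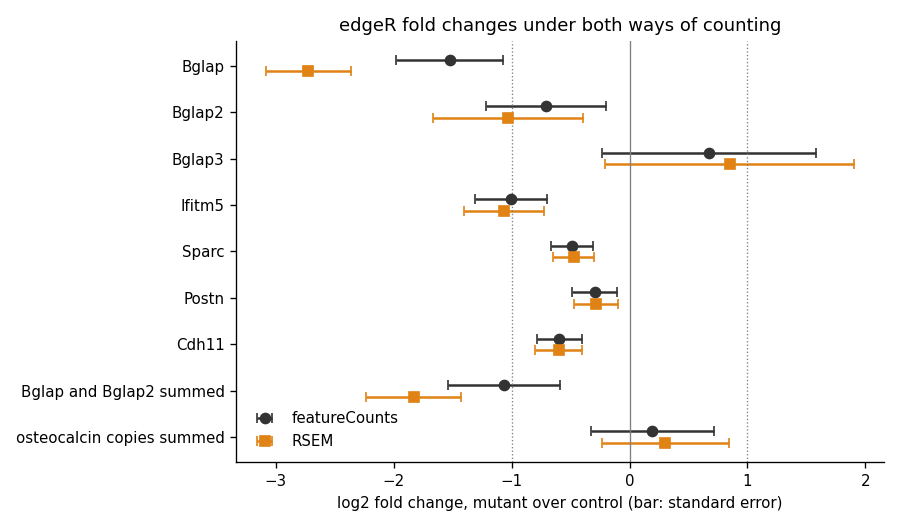
Log2 fold change, mutant over control (horizontal axis, bars show the standard error), from edgeR on featureCounts counts (circles) and on RSEM expected counts (squares), with dotted lines at the limit of 1 either way. Bglap moved from -1.52 to -2.73 between the tables, whereas Sparc, Postn and Cdh11 hardly moved.

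Ifitm5 encodes a small membrane protein of osteoblasts, also called BRIL, whose human gene carries mutations in a form of brittle bone disease. It lies at chr7:140948958-140950291 on the minus strand, beside Ifitm2 and Ifitm1. Its level was 51.2, 54 and 58.0 TPM in E420, E434 and E435 and 29.0, 13.9 and 31.1 TPM in E423, E433 and E440. All mutants were below all controls, the controls were close together, and E433 was again the lowest. The featureCounts values had the same order between groups, with 505, 605 and 721 counts against 332, 164 and 400 counts. The log2 fold change was -1.0 (SE 0.302, edgeR adjusted p 0.390) from featureCounts and -1.06 (SE 0.341, adjusted p 0.399) from RSEM.

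DESeq2 gave Ifitm5 an adjusted p of 0.0316 from featureCounts, at a log2 fold change of -0.998 just under the limit, and of 0.0571 from RSEM at -1.06, which was a call. Without E433 the edgeR log2 fold change was -0.71 (adjusted p 0.0311) from featureCounts, so E433 added to the size of the difference and to its spread. The annotated gene Gm45717 overlaps Ifitm5, and 26.1% of the 42-base stretches of Ifitm5 lie in both. The ratio of featureCounts counts to RSEM fragments for Ifitm5 was 1.15 to 1.16 in the controls and 1.18 to 1.33 in the mutants, highest in E433 and below that of Sparc throughout, and Gm45717 itself had 0 counts in all 6 libraries. Reads that overlapped both genes were not assigned by featureCounts, so its Ifitm5 counts miss a portion in every library.

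Sparc encodes osteonectin, a matrix protein that binds collagen and calcium. It lies at chr11:55394500-55423183 on the minus strand. It had 2472, 3503 and 2422 TPM in E420, E434 and E435 and 1813, 2256 and 1795 TPM in E423, E433 and E440. The groups did not overlap, although the lowest control and the highest mutant were close, and in both groups the cartilage-rich library was the highest. The log2 fold change was -0.49 (SE 0.178, edgeR adjusted p 0.435, DESeq2 0.104) from featureCounts, a mutant mean of 71.4% of the control mean in CPM. Without E434 it was -0.30 (SE 0.1, adjusted p 0.406).

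Postn encodes periostin, a matrix protein of the periosteum and other collagen-rich tissues. It lies at chr3:54361109-54391037 on the plus strand. It had 1288, 1553 and 1272 TPM in E420, E434 and E435 and 913, 1500 and 913 TPM in E423, E433 and E440. E433 lay among the controls, so the groups overlapped, while the other mutants were below every control. Its log2 fold change was -0.30 (SE 0.194, edgeR adjusted p 0.620, DESeq2 0.584). It was -0.49 without E433 and -0.19 without E434.

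Cdh11 encodes osteoblast cadherin, a cell adhesion protein of mesenchymal cells. It lies at chr8:102632095-102785642 on the minus strand. In CPM it was 237, 263 and 230 in E420, E434 and E435 and 134, 212 and 136 in E423, E433 and E440, without overlap. In TPM, which is scaled to a different total, E433 at 60.2 passed control E435 at 57.8. From featureCounts it changed by a log2 value of -0.60 (SE 0.191, edgeR adjusted p 0.407), and DESeq2 gave an adjusted p of 0.0895, with a fold change under the limit. Without E433 it was -0.84 (SE 0.084, edgeR adjusted p 0.0109).

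Over all, 0 of the 7 genes were called by edgeR in either table, and Bglap, Ifitm5, Sparc and Cdh11 had an unadjusted p under 0.05 in both, a direction and limit met by 4.7% of genes in featureCounts and 4.94% in RSEM. These 4 of the 7 were also lower without overlap in featureCounts CPM, as were 8.21% of the genes tested. With DESeq2 and no limit on the fold change, Bglap, Ifitm5 and Cdh11 were lower, 3 of 7, against 1.42% of the genes tested. The median log2 fold change of the 7 genes was -0.60, and that of all genes tested was 0.01. With E434 and E433 left out, edgeR gave log2 fold changes of -1.12 for Bglap, -0.73 for Ifitm5, -0.35 for Sparc, -0.39 for Postn and -0.79 for Cdh11, each with an adjusted p of 0.00776 or less. In the same fit Bglap2 was at -0.38 (edgeR adjusted p 0.339). That fit rests on the pairs of close libraries described above and called 648 genes lower and 1418 higher. With no limit on the fold change, 4578 of 25045 genes were lower and 4847 higher at an adjusted p under 0.1. The fit therefore counts little of the spread between embryos.

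Relative to Sparc in the same library, Ifitm5, Postn, Cdh11 and the summed osteocalcin copies overlapped between the groups, and Bglap did not. The log2 ratio of Ifitm5 to Sparc was -5.59, -6.02 and -5.38 in the controls and -5.96, -7.34 and -5.85 in the mutants, a difference of -0.72 (exact permutation p = 0.3, adjusted 0.75 over 5 ratios). Without E433 that difference was -0.24. For Postn to Sparc the difference was 0.16, and for Cdh11 to Sparc it was -0.14, each with an exact permutation p = 0.6. For summed osteocalcin to Sparc it was 0.09 (exact permutation p = 1) in TPM, but 0.70 from featureCounts counts. The ratio of Bglap alone to Sparc, computed after the values were seen and not tested, was -8.17, -9.05 and -8.45 in the controls and -11.26, -11.68 and -10.24 in the mutants.

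**Figure D4:**
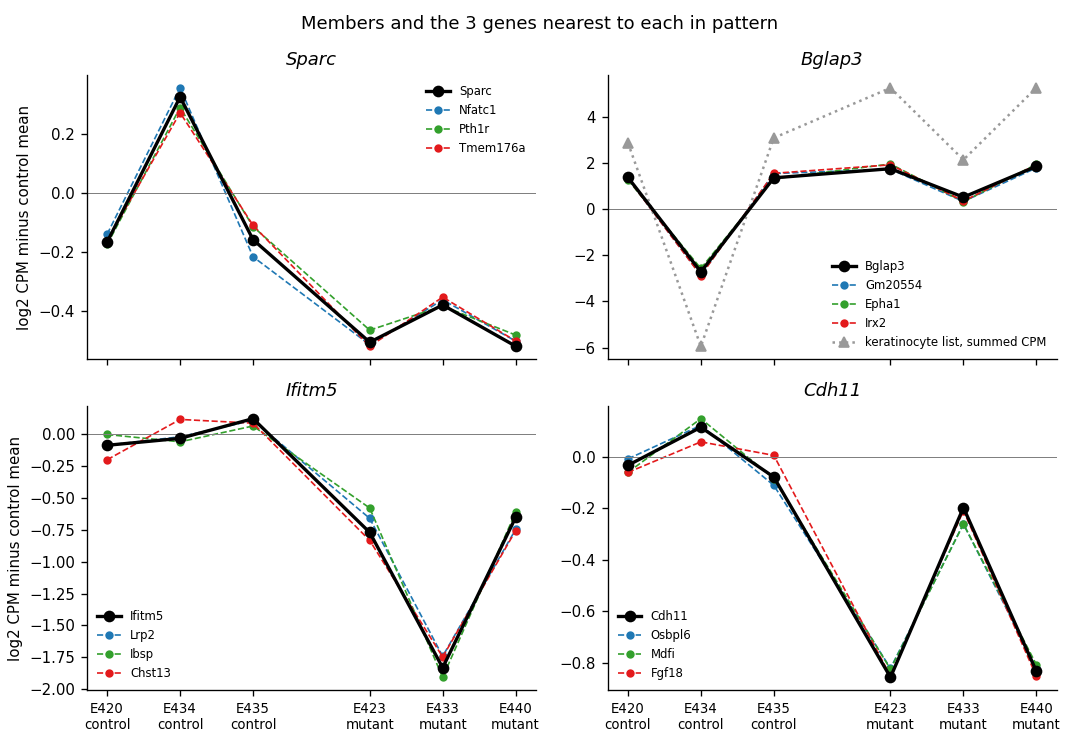
Log2 CPM of each library minus the mean of the controls (vertical axis) for Sparc, Bglap3, Ifitm5 and Cdh11 (black) and the 3 genes closest to each (dashed), from featureCounts, with lines joining libraries only to guide the eye. In the Bglap3 panel grey triangles show the summed CPM of 8 keratinocyte genes, which also dipped in E434.

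For each gene the nearest genes were those with the smallest root mean square difference in log2 CPM relative to the control mean over the 6 libraries, among 16568 genes with a mean of at least 1 CPM. Among the nearest to Bglap were Enpp6 (0.19) and Gm4788 (0.26), and nearest to Ifitm5 were Lrp2 (0.07), Ibsp (0.10) and Chst13 (0.10), where Ibsp encodes bone sialoprotein. Among the nearest to Bglap2 were Mt3 (0.19) and Ibsp (0.25). Nearest to Bglap3 were Gm20554 (0.13), Epha1 (0.14) and Irx2 (0.15). With RSEM counts they were Lypd6b, Exph5 and Tyr, the last encoding tyrosinase of pigment cells. Sparc was nearest to Nfatc1, Pth1r and Tmem176a at 0.03 each, Postn to Tm7sf3, Snx25 and Pofut2 at 0.02 to 0.03, and Cdh11 to Osbpl6, Mdfi and Fgf18 at 0.03 to 0.04. Pth1r encodes the receptor for parathyroid hormone, and Fgf18 a growth factor of the perichondrium.

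Of 11 transcription factors known to act on osteocalcin or in osteoblasts, 0 were called by edgeR, 7 had an unadjusted p under 0.05, all lower (4.7% of all genes tested), and 5 were lower in DESeq2 (1.42%). Runx2, the main osteoblast transcription factor, was at 34.1, 44.6 and 30.9 CPM against 14.7, 19.4 and 15.9 CPM, with a log2 fold change of -1.13 (SE 0.176, DESeq2 adjusted p 2.63e-06). Sp7, which acts after Runx2, was at 65.3 ± 5.15 CPM against 26.2 ± 6.62 CPM. Vdr, the vitamin D receptor, had a log2 fold change of -1.44 (SE 0.254, edgeR adjusted p 0.202). Cbfb, the partner of Runx2, had a smaller one of -0.39 (SE 0.070, DESeq2 adjusted p 0.00136). Atf4, which is also known to act on osteocalcin, was at 227 ± 9.56 CPM against 232 ± 33.9 CPM.

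The 250 bases before the start of Bglap, at chr3:88384467-88384716 in GRCm38.p6 on the minus strand as given by RefSeq, are shown because this gene had the lowest mutant level and the Runx2 binding letters were sought there, with the match in capitals.
Bglap promoter: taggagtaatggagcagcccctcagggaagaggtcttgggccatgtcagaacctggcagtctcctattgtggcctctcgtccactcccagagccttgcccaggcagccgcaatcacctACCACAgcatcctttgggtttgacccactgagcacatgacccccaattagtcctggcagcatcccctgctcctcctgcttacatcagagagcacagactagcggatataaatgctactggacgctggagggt
The letters ACCACA, sought on both strands, occurred once, 132 bases before the start, and 14% of 32851 promoter windows of this length hold them. The windows of Bglap3, Ifitm5, Sparc and Postn held no match. The letters TATAAA occurred 27 bases before the start of Bglap and are in 12.4% of windows. They also occurred 26 bases before the start in the Postn window at chr3:54360857-54361106. The other Postn window and those of Bglap3, Ifitm5 and Sparc did not hold them. A match of letters is a description and does not show binding. Windows for Bglap2 and Cdh11 were not analysed here.

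The carboxylation genes act on the osteocalcin protein. Of this list of 10 genes of the vitamin K cycle, propeptide cleavage, other carboxylated proteins and a proposed receptor, 9 were tested and 0 passed any of the tests, with a median log2 fold change of -0.27. Ggcx, the carboxylase itself, was at 33.7 ± 6.09 CPM against 26.6 ± 6.84 CPM (log2 fold change -0.34, SE 0.210, edgeR adjusted p 0.597). Gas6 had a log2 fold change of -0.01 (SE 0.113). Mgp, an inhibitor of mineral in cartilage, was at 72.8, 189 and 78.9 CPM against 39.6, 98.8 and 39.4 CPM, high where the chondrocyte genes were high.

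Of 10 genes of the Ifitm family and partners of IFITM5, 9 were tested, 0 were called by edgeR or DESeq2 and 1 had an unadjusted p under 0.05. Ifitm2, next to Ifitm5, was at 54.2 ± 2.71 CPM against 48.5 ± 1.11 CPM, a log2 fold change of -0.16 (SE 0.072, edgeR adjusted p 0.489), and Ifitm3 had one of -0.05 (SE 0.142). The span of Gm45717 covers most of Ifitm2 too. Ifitm2 had fewer featureCounts counts than RSEM fragments in every library, as with 2012 against 2647 in E420, so its CPM miss a portion as well. Fkbp11, whose protein binds IFITM5, had a log2 fold change of -0.41 (SE 0.166, edgeR adjusted p 0.464). The 9 genes ranged from -0.93 for Ifitm6 (SE 0.589) to 1.25 for Ifitm10 (SE 0.698), and how they differ from Ifitm5 was not tested.

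Of 7 Sparc family genes 0 were called by edgeR or DESeq2, and 1 lower and 1 higher had an unadjusted p under 0.05. Smoc2 had a log2 fold change of -0.39 (SE 0.124, edgeR adjusted p 0.407), Smoc1 one of 0.50 (SE 0.184, adjusted p 0.435) and Sparcl1 one of -0.05 (SE 0.162). Of 10 relatives, partners and receptors of periostin, 0 were called by edgeR, 4 lower ones had an unadjusted p under 0.05 and 2 were lower in DESeq2. These were Lox, which crosslinks collagen, at 547 ± 41.3 CPM against 349 ± 47.3 CPM (DESeq2 adjusted p 0.000598), and the integrin gene Itgav at 137 ± 22.9 CPM against 86.5 ± 11.6 CPM (adjusted p 0.0101). Tgfbi, the closest relative of Postn, had a log2 fold change of -0.37 (SE 0.421, edgeR adjusted p 0.784).

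Among 12 cadherin and catenin genes, Cdh2 was lower in every mutant, at 56.9, 62.9 and 58.0 CPM against 28.3, 34.8 and 28.4 CPM. Its log2 fold change of -0.96 (SE 0.108) had an edgeR adjusted p of 0.0956 but missed the limit of 1, and DESeq2 gave 1.02e-09. The other 11 were not called by either tool, among them Ctnnb1, beta-catenin, at -0.15 (SE 0.082). Cdh1, the epithelial cadherin, was at 0.706 CPM in E434 and at 71.4 to 71.9 CPM in the other controls, the same library in which Bglap3 was low.

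Bone matrix and mineral genes outside the members were mostly lower in the mutants. Of 13 such genes, 1 was called lower by edgeR (0.0301% of all genes tested), 9 were lower in DESeq2 (1.42%), 10 were lower without overlap (8.21%), and the median log2 fold change was -0.92. Phex, a peptidase gene of osteoblasts and osteocytes, was the edgeR call, at 39.1 ± 2.52 CPM against 12.2 ± 1.64 CPM (log2 fold change -1.68, SE 0.124, adjusted p 0.0775). Dmp1 was at 47.3 ± 5.70 CPM against 8.29 ± 3.89 CPM (DESeq2 adjusted p 1.67e-10), and Spp1, osteopontin, at 469 ± 31.1 CPM against 90.1 ± 54.4 CPM (DESeq2 adjusted p 0.00941). Ibsp was at 923, 887 and 967 CPM against 619, 247 and 605 CPM (log2 fold change -0.92, SE 0.336, edgeR adjusted p 0.434). Alpl, alkaline phosphatase, was lowest in E433 at 18.4 CPM, as Bglap, Ifitm5, Spp1 and Ibsp were. Mepe and Pdpn overlapped between the groups.

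**Figure D5:**
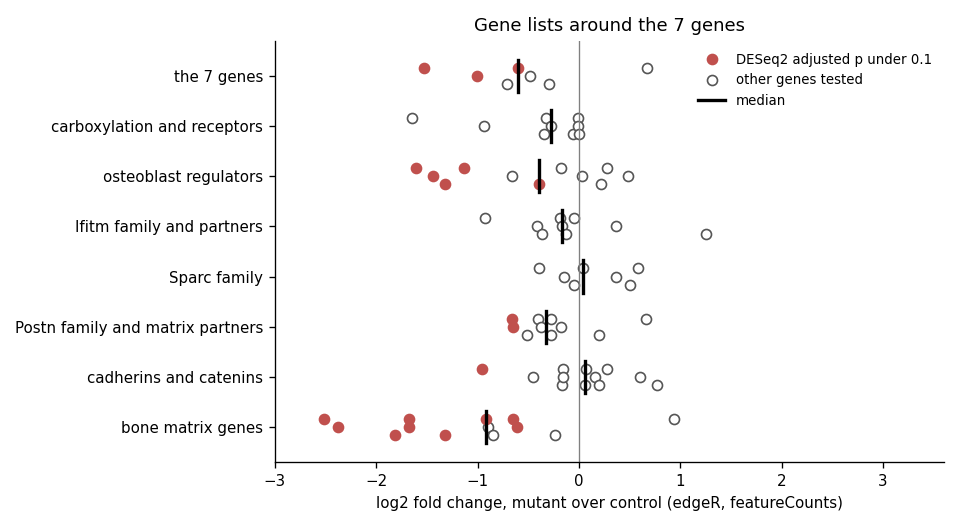
Log2 fold change, mutant over control (horizontal axis, edgeR on featureCounts), of each tested gene in the lists around the 7 genes, filled where the DESeq2 adjusted p was under 0.1, with black bars at the medians. Bone matrix genes had a median of -0.92, the osteoblast regulators of -0.39 and the carboxylation genes of -0.27.

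Markers of some other cells moved as well. All 8 osteoclast genes were lower without overlap in featureCounts CPM, against 8.21% of the genes tested. Of them 3 had an unadjusted p under 0.05 in edgeR, 1 was called by edgeR and 1 was lower in DESeq2. Their summed level was 599 to 623 CPM in the controls and 120.2 to 298 CPM in the mutants, lowest in E433. The 5 hypertrophic chondrocyte genes, of which Ibsp is also a bone matrix gene, summed to 1341 to 1818 CPM against 471 to 814 CPM, again lowest in E433. Ibsp, at the CPM given above, made up a large part of each sum and was itself lowest in E433. The sums therefore do not show this order for the other genes of the list. All 7 fat cell genes were higher in DESeq2 from featureCounts, against 2.15% of the genes tested, and 5 of 7 from RSEM, with sums of 126.4 to 140 CPM against 191.7 to 580.7 CPM, and Adipoq, the adiponectin gene, was at or under 0.458 CPM in the controls and at 7.19 to 53.2 CPM in the mutants. Of the 5 tendon genes 4 were lower in DESeq2, and of the 6 erythroid genes 5, against 1.42% of the genes tested. The tendon sums overlapped, at 319 to 894 CPM against 129.6 to 389 CPM. The erythroid sums were 22552 to 27745 CPM against 9355 to 18146 CPM. The 12 chondrocyte genes had a median log2 fold change of -1.36, with sums that overlapped between the groups. Of the chondrocyte, muscle and endothelial genes 0 passed in DESeq2 from featureCounts. Of the 9 fibroblast genes 1 was lower and 3 were higher, and 1 of 8 keratinocyte and 1 of 7 hepatocyte genes was higher. The part of these cell types in the values of Bglap and Ifitm5 was not tested.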

How the data were processed

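RNA-Seq was measured in rib cages of 3 control and 3 mutant embryos, grouped by the genotype in the labels. The authors aligned reads to GRCm38 with HISAT2 2.1.0 and counted them with featureCounts 1.6.0, and these counts were deposited without normalisation. Strand was not used, each end was counted, primary alignments were kept and reads over several genes were left out. From STAR 2.7.6 alignments the authors also deposited RSEM 1.2.31 expected counts, TPM and FPKM values, of which FPKM was not used here, nor were another 12 columns of per-sample values and the authors' own DESeq2 fold changes and p-values.

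Genes with 10 or more summed counts entered edgeR 4.0.16 (TMM, glmQLFTest) in R 4.3.3, with Benjamini-Hochberg adjustment. DESeq2 1.42.0 was an alternative, and expected counts were rounded first. A call required an adjusted p under 0.1 and a log2 change of 1 or more. CPM were scaled to library sizes adjusted by TMM, and log2 CPM used a prior count of 2. The steps were tested on simulated data. Genes named were the members, Foxc1, Foxc2, genes of the lists, the 3 nearest in pattern and neighbours within 50 kb. Gene models, coding sequences and coordinates came from an earlier GENCODE release for GRCm38 than the authors used. Some genes that these rules select are not reported here. The members and lists were chosen with earlier results of these data known. Nothing in the labels says which embryos shared a litter, and p-values set a difference only against the spread between these libraries.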

Additional observations from a re-analysis of the deposited data

How the results depend on the processing

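Bglap was lower under each of its 17 alternatives in featureCounts, from -2.73 (the RSEM counts) to -1.12, and its 16 in RSEM, from -3.19 to -2.53. With single libraries left out it ranged from -1.90 to -1.12 and from -3.19 to -2.53. Ifitm5, Sparc, Postn, Cdh11 and Bglap2 were lower and Bglap3 higher under every alternative run for them. Among the alternatives, the stricter adjusted p, no limit on the fold change and edgeR's robust step leave the fold change as it was. Their direction was therefore fixed in advance. Calls that edgeR did not make on all 6 libraries were made for Bglap by DESeq2 (-1.52 in featureCounts and -2.75 in RSEM), without mutant E433 (-1.12 and -2.53), with both cartilage-rich libraries left out (-1.12 and -2.60) and, in RSEM, with the chondrocyte list as a covariate (-2.87). Ifitm5 was called by DESeq2 in RSEM (-1.06). Bglap and Bglap2 summed, a choice made after seeing the data, were called in RSEM by DESeq2 (-1.83), without mutant E433 (-1.49) and with both cartilage-rich libraries left out (-1.39), and ranged over single libraries left out from -2.22 to -1.49 in RSEM and from -1.42 to -0.65 in featureCounts.

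The 3 copies summed turned to -0.34 in featureCounts and -0.26 in RSEM with the chondrocyte covariate. With single libraries left out the sum ranged from -0.17 to 0.53 in featureCounts and from -0.053 (without control E434) to 0.65 in RSEM. Its log2 ratio to Sparc, 0.09 in TPM, was 0.76 from RSEM expected counts and 0.70 from featureCounts counts, and with single libraries left out it ranged from -0.23 to 0.72, with values below 0 of -0.23 without control E434, -0.23 without mutant E423 and -0.22 without mutant E440. Over single libraries left out the ratio to Sparc ranged from -0.99 to -0.24 for Ifitm5, from 0.03 to 0.23 for Postn and from -0.32 to -0.02 for Cdh11, and the ratio of Bglap to Bglap2 from -2.13 to -0.95. With featureCounts in place of TPM the mean share of Bglap in the controls was 26.4% and that of Bglap3 84.2% in the mutants and 48.7% in the controls (27.0% in TPM). RSEM used a mean transcript length of 764 to 1255 bases for Bglap3, 418 to 440 for Bglap and 471 for Bglap2. TPM is scaled for this length and counts are not. How much of these differences between units comes from length was not tested.

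Over all genes edgeR called 8 lower and 9 higher in featureCounts and 5 and 5 in RSEM. In featureCounts the calls lower and higher were 122 and 355 with DESeq2, 16 and 19 with the robust step, 15 and 22 with no low-count filter, 70 and 177 with the chondrocyte covariate, 648 and 1418 with both cartilage-rich libraries left out (chosen after seeing the data), 0 and 0 with the close libraries summed, 0 and 0 at an adjusted p under 0.01, and 14 lower with no limit on the fold change. In RSEM the same settings gave 93 and 266, 8 and 8, 8 and 10, 56 and 163, 543 and 1236, 0 and 0, 0 and 0, and 11 lower. Leaving out 1 library gave 0 to 353 lower and 0 to 734 higher in featureCounts and 0 to 316 lower and 0 to 701 higher in RSEM, with the highest counts without mutant E433 and 0 by edgeR without control E420 or E435 or mutant E423 or E440. An unadjusted p under 0.05 was held by 2820 genes in featureCounts and 2481 in RSEM with all libraries, by 769 and 604 with the close libraries summed, and by 1450 to 1698 and 1162 to 1417 in the single-library omissions without calls. Bglap and Bglap2 rest on at most 64 featureCounts counts and at most 31.7 estimated RSEM counts a library, which limits their precision.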
